A study of Mus musculus with 16 samples.

Results

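The regions described here are places in the mouse genome where histone H3 acetylated at lysine 27 (H3K27ac) was higher in classical dendritic cells (cDC) than in common dendritic cell progenitors (CDP), and where no change was listed between CDP and plasmacytoid dendritic cells (pDC). They were chosen by the cDC and CDP signals of the deposited list that compares CDP with cDC, among its autosomal regions. Each has a mean cDC signal of at least 100, a ratio of cDC to CDP of at least 2 after adding 1 to both means, and both cDC libraries above both CDP libraries. None overlaps a region of the deposited CDP and pDC list by 1 bp or more. This gave 2842 regions, which are 41.5% of the 6850 autosomal gains that met the conditions on cDC and CDP, and 3.78% of the 75217 autosomal regions of the list. The other 4008 gains, 58.5%, overlapped the CDP and pDC list. The share of all autosomal regions without such an overlap is not given here, so nothing is drawn from the 41.5%. The 4 deposited lists hold 273958 regions in all.

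All groups are cells of C57BL/6 mice, sorted before crosslinking: cDC, pDC, CDP and multipotent progenitors (MPP), each with 2 H3K27ac libraries. The libraries carry no treatment or mutation in the labels, which do not tell if a pair of libraries stands for separate animals or sorts, so the spread within a pair may be technical. The labels name one antibody supplier among the sample characteristics and another in the protocol. In bulk libraries, fewer cells with a mark and less of the mark per cell cannot be told apart. Input libraries and RNA libraries are also labelled and were not analysed here, and neither was a gene annotation or genome sequence of the build mm9. The regions are therefore given by position, with no gene names and no sequences, and the cell type labels were not checked against marker genes.

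H3K27ac is deposited by the acetyltransferases CBP and p300 and marks promoters and enhancers in use. Most distal enhancers are acetylated in a few cell types only. MPP give rise to CDP, and CDP give rise both to cDC, which take up and present antigen to T cells, and to pDC, which are specialised in secreting type I interferon.

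The values that chose the regions are described first, with no test. The listed signals are whole numbers whose scaling is not stated, and the same library differs by a nearly constant factor between lists. Levels are therefore compared within a list only, and the read depth is unknown. In the CDP and cDC list the first-listed cDC library had a median signal of 199 in these regions and the second-listed 274, against 56 and 65 in the CDP libraries. The mean cDC signal ran from 100 to 4307 with a median of 240, against a median of 59.3 for the mean CDP signal. The median ratio was 3.86, with quartiles of 2.69 and 6.49. A ratio of at least 4 was reached by 1356 regions, at least 8 by 531, at least 16 by 171 and at least 32 by 62. The rule also passed 9.11% of all autosomal regions of the list before the CDP and pDC list was read, and nothing is drawn from that share.

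**Figure D1:**
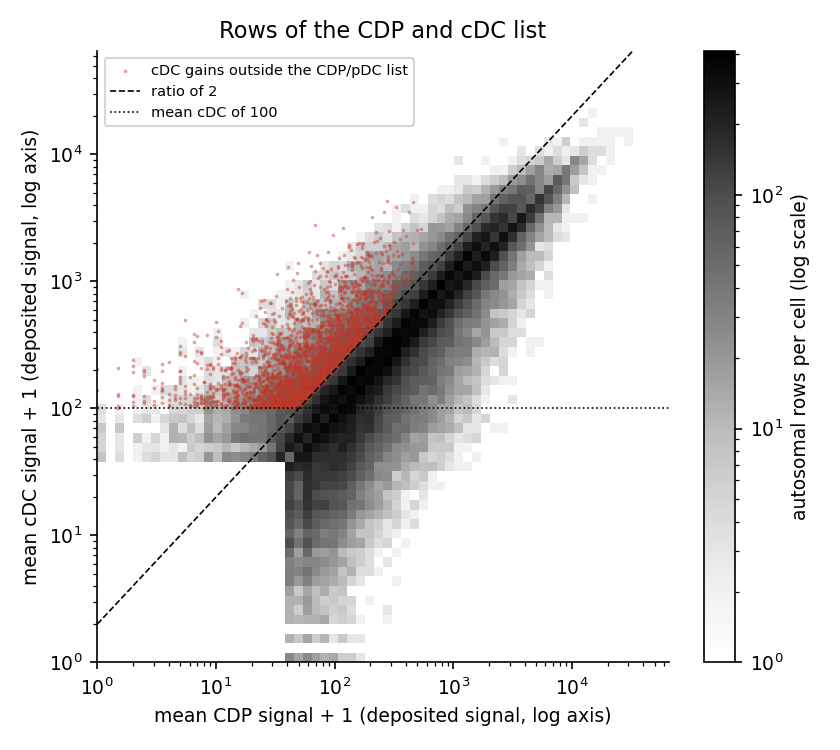
Mean signal of the 2 CDP libraries (x axis) and of the 2 cDC libraries (y axis) in the CDP and cDC list, both plus 1 on log axes. Grey cells count autosomal regions and red points are the 2842 gains outside the CDP and pDC list, which lie above the ratio of 2 (dashed) and the mean of 100 (dotted) that chose them.

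The gap between the groups was wide for many of these regions and narrow for others. The lower cDC library was at least 1.5 times the higher CDP library in 2444 of the 2842 regions (86.0%) and at least 2 times in 1792 (63.1%). The second-listed cDC library lay above the first in 2292 regions (80.6%), with a median log2 offset of 0.46. The 2 CDP libraries differed by a median of 0.23 in the same direction. At the edge of the ratio, the region at chr12:117654901-117655450 had 156 and 162 for cDC beside 86 and 72 for CDP, a ratio of 2.00. Just outside it, chr19:53293501-53294150 had 289 and 308 (cDC) against 230 and 68 (CDP), a ratio of 1.997. At the edge of the signal, chr1:23473101-23473450 had 102 and 98 for cDC beside 15 and 21 for CDP. Just below it, chr10:36825851-36826200 had 104 and 95 (cDC) against 2 and 8 (CDP). A further 1056 regions outside the CDP and pDC list missed the minimum signal alone and 224 missed the separation of the libraries alone.

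The strongest gain was at chr16:10479301-10484300 (mm9), a region of 5 kb. The cDC libraries read 4405 and 4208 there and the CDP libraries 258 and 298, so that cDC was 15.4-fold higher. In the cDC and pDC list the same place had 4350 and 4188 for cDC beside 326 and 295 for pDC, a 13.7-fold difference (limma log2 ratio 3.78 ± 0.29, SE, adjusted p = 0.000199). The 2 cDC libraries were nearly level here, and pDC and CDP were both low.

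Next in signal, chr11:72972801-72976750 had 3662 and 4807 (cDC) against 546 and 364 (CDP), a 9.29-fold difference. Its cDC signals of 3499 and 4589 in the other list stood against 190 and 315 in pDC. Region chr10:30393751-30397500 had 2912 and 4841 for cDC beside 271 and 390 for CDP, and cDC signals of 2850 and 4723 beside pDC signals of 119 and 194. The second-listed cDC library was clearly the higher at both places. Region chr1:88902701-88906250 had 2692 and 4397 (cDC) against 242 and 278 (CDP), a 13.6-fold difference. In the other list it had 2621 and 4355 for cDC beside 326 and 300 for pDC, an 11.1-fold difference.

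The longest single region was at chr2:148713401-148719950, at 6.55 kb. It had 2617 and 4456 (cDC) against 298 and 542 (CDP), an 8.40-fold difference. Its largest overlap in the cDC and pDC list is a region over its first 3.20 kb, with 1711 and 2313 for cDC beside 334 and 430 for pDC. Region chr18:24490151-24495450, 5.30 kb long, had 3111 and 3268 (cDC) against 242 and 174 (CDP). In the other list a region of 3.90 kb there had 2513 and 2736 for cDC beside 88 and 276 for pDC. As a ratio, the pDC libraries differed more from each other than the cDC libraries did.

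Region chr16:24114201-24116350 held the largest ratio among the 8 strongest regions, with 1423 and 4165 (cDC) against 42 and 94 (CDP), a 40.5-fold difference. The ratio was 60.4 without the first-listed cDC library and 20.6 without the second. In the other list it had 1403 and 4011 for cDC beside 65 and 93 for pDC. Region chr15:91452601-91455900 had 2079 and 3203 (cDC) against 78 and 154 (CDP), a 22.6-fold difference. Its signals of 2041 and 3139 in cDC stood against 84 and 80 in pDC. In each of the 8 strongest regions both cDC libraries lay above both pDC libraries in the cDC and pDC list. Against CDP the rule fixes this order.

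**Figure D2:**
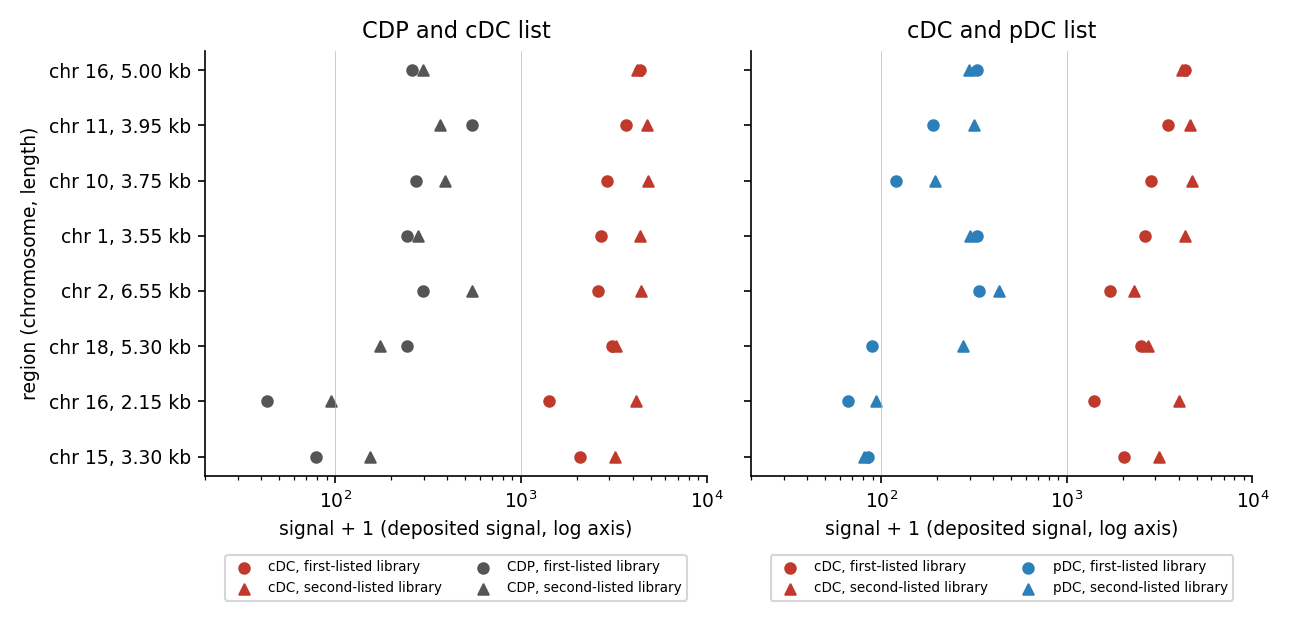
Signal plus 1 (log axis) of each library in the 8 regions with the largest mean cDC signal, in the CDP and cDC list (left) and in the cDC and pDC list (right). Circles are first-listed and triangles second-listed libraries. The cDC libraries (red) lie to the right of pDC (blue) in every row, and to the right of CDP (grey) by the rule.

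The regions with the largest ratios were short and started from almost no signal in CDP. Both CDP libraries were listed at 0 in 4 regions and one of them in another 75, and no ratio is given where both are at 0. Region chr4:82973751-82974250 had 217 and 193 in cDC and was at 0 in each CDP library of the list. In the other list it had 186 and 169 for cDC beside 89 and 107 for pDC, so cDC was 1.80-fold higher than pDC, with an adjusted p of 0.212 in limma. Region chr18:7945251-7945650 had 100 and 179 in cDC and was at 0 in each CDP library of the list. It had 78 and 136 (cDC) against 25 and 61 (pDC).

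At other places of this kind pDC was also at or near 0. Region chr15:62981251-62981750 had 219 and 197 for cDC beside 1 and 0 for CDP. In the other list it had 170 and 150 in cDC and was listed at 0 in both pDC libraries. Region chr2:28052601-28053150 had 179 and 250 (cDC) against 2 and 0 (CDP), and 170 and 227 in cDC with both pDC libraries at 0. The same held for chr2:70847001-70847600, with 165 and 217 for cDC beside 2 and 0 for CDP. Region chr17:5787751-5788350 had 235 and 248 (cDC) against 1 and 1 (CDP), and cDC signals of 202 and 211 beside pDC signals of 17 and 8. One of the 8 steepest regions rested on a single library: chr19:29250651-29250950 had 5 and 200 in cDC, with both CDP libraries at 0.

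By median, the gains outside the CDP and pDC list were shorter than the other cDC gains and had a lower cDC signal. Their ratio of cDC to CDP, which the rule used, was larger, with a median of 3.86 against 2.86. In 63.1% of them, against 47.3%, the lower cDC library was at least 2 times the higher CDP library. Their median length was 650 bp, against 1300 bp for the gains that overlapped that list, and together they covered 2.31 Mb against 6.29 Mb. Per kb, their median cDC signal was 366, against 557 for the overlapping gains, and their median CDP signal was 97.2, against 178. Of the 1063 gains with a mean cDC signal of 100 to 150, 745 lay outside the CDP and pDC list (70.1%). Of the 1771 gains with a mean of at least 1000, 162 did (9.15%). By length the share was 68.3% under 500 bp and 4.21% at 3000 bp or more. The part of signal and length in the choice of these regions was not tested, and absence from the CDP and pDC list does not show equal signal in CDP and pDC.

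**Figure D3:**
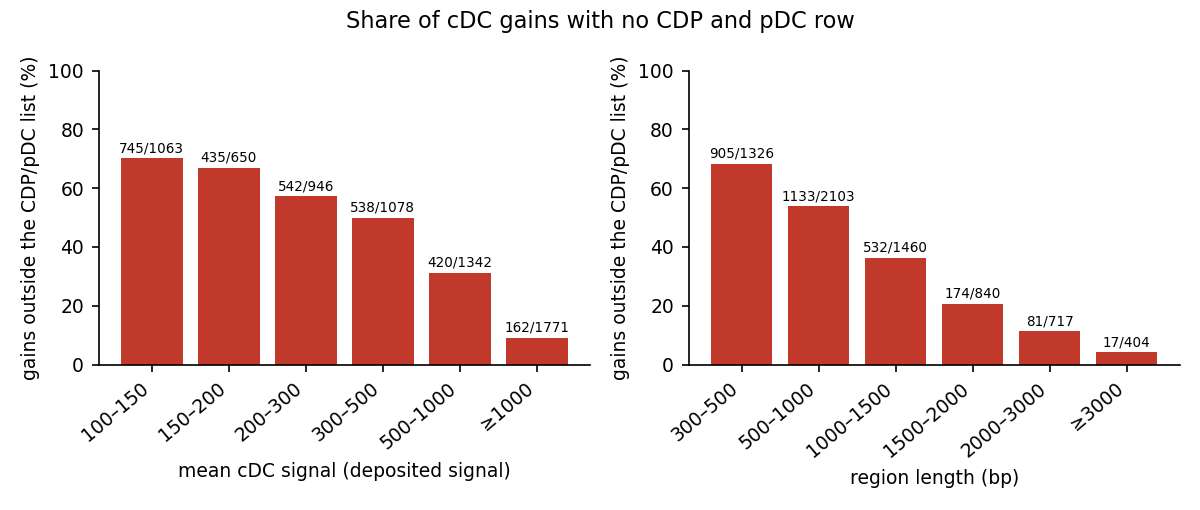
Percent of the autosomal cDC gains that lie outside the CDP and pDC list, by mean cDC signal (left) and by length (right), with the number outside over the number of gains above each bar. The share falls from 70.1% to 9.15% with signal and from 68.3% to 4.21% with length.

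The regions were found on every autosome. They made up 37.8 of every 1000 autosomal regions of the list, with the lowest rate on chromosome 8 at 26.3 and the highest on chromosome 18 at 49.2. As a share of each chromosome's gains they ran from 34.9% on chromosome 8 to 48.0% on chromosome 19. Differences between chromosomes were not tested.

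The median distance from these regions to the nearest other cDC gain was 13.5 kb, against 17.4 kb for the gains that overlapped the CDP and pDC list. It was 46.5 kb to the nearest other region of this set, and 47.5 kb to the nearest gain that overlapped the CDP and pDC list. Within 10 kb, 822 regions (28.9%) had another of the set and 704 (24.8%) had a gain of the other kind. A listed region with the higher mean in CDP lay within 10 kb of 1231 regions (43.3%) and within 1 kb of 204 (7.18%). The shares expected from the density of the lists were not computed for any of the distances given here. The CDP and pDC list came near as well: 410 regions (14.4%) had one of its regions less than 1 kb away, higher in pDC in 202 cases and higher in CDP in 208. Regions of the set joined when less than 1 kb apart gave 175 stretches of 2 to 5 regions, which held 365 of them (12.8%).

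The longest of these stretches, of 3 regions over 6.00 kb at chr5:76066801-76072800, had sums of 2005 and 3328 (cDC) against 478 and 446 (CDP). These are sums over the listed regions, which cover 5.20 kb of the stretch, and they carry no test. The 3 regions of the cDC and pDC list that overlap it summed to 1896 and 3060 for cDC beside 271 and 203 for pDC. The next, at chr17:34447651-34453050, held 4 regions over 5.40 kb, of which they cover 4.10 kb. They summed to 1578 and 2818 (cDC) against 210 and 303 (CDP). In the other list 3 regions overlapped it, and the cDC libraries summed to 1350 and 2551 there and the pDC libraries to 129 and 318. A stretch of 5 regions at chr5:113419751-113424650 summed to 1531 and 1692 for cDC beside 204 and 218 for CDP. The 5 regions of the other list there summed to 1297 and 1400 (cDC) against 211 and 216 (pDC). The stretches at chr3:79784301-79789100 and chr14:54529101-54533850 held 3 regions each. In all 5 stretches the sums of both cDC libraries lay above those of both pDC libraries in the cDC and pDC list. Against CDP the rule fixes this order.

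Read in the cDC and pDC list, these places were higher in cDC than pDC with few exceptions. A region of that list covered 2588 of the 2842 (91.1%), and the one with the largest overlap was taken. The cDC mean was above the pDC mean in 2581 of the 2588 (99.7%), against 43.0% over all 66319 regions of the list. Median signals were 167 and 229 in the cDC libraries against 45 and 55 in the pDC libraries. On the log2 scale the median of cDC over pDC was 2.10, or 4.29-fold, against -0.20 over the whole list. The median SD between the cDC libraries in these regions was 0.35 on the log2 scale. The direction is largely fixed by the choice: the same cDC libraries chose the regions, which had to be low in CDP and to have no listed difference between CDP and pDC.

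Both cDC libraries lay above both pDC libraries in 2368 of the 2588 regions (91.5%), which was so for 26.0% of all regions of the list. A ratio of at least 2 with separate libraries was found in 2138 (82.6%), against 12.9% of the list. In limma over all regions of the list, 1591 of the 2588 (61.5%) were higher in cDC at an adjusted p under 0.05, against 9.32% of the list. Only 1 was lower, against 23.3% of the list, and it was read from the edge of a longer region. Only 2 libraries a group entered, and the list holds regions already called as differing from the same libraries, so these p-values are a scale and no independent test. Leaving out a library moved the count: 828 of 1974 regions were higher in cDC without the second-listed cDC library, which also changed the regions chosen, and 1045 of 2588 without the first-listed pDC library. In such a fit 1 group has a single library, which is assumed to vary like the other group, and fewer degrees of freedom remain. When each library was scaled to one autosomal total, 2337 of 2792 regions were called higher in cDC, against 27.7% of the list, and the median over the list moved to 0.26, the opposite sign to the -0.20 of the listed values.

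**Figure D4:**
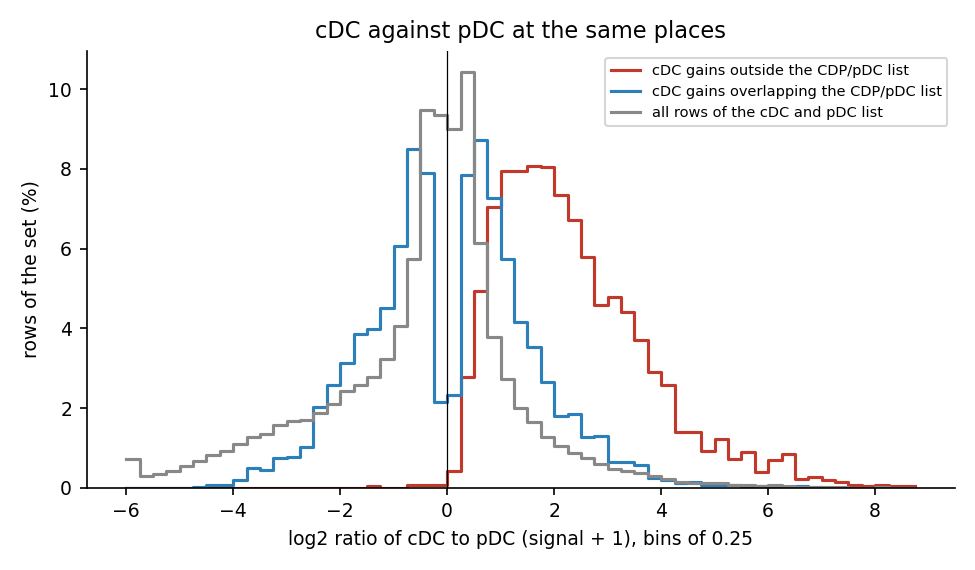
Log2 ratio of cDC to pDC (signal plus 1) in the cDC and pDC list in bins of 0.25, as percent of each set, with values under -6 in the lowest bin. The gains outside the CDP and pDC list (red, 2588 regions, median 2.10) lie to the right of 0 except for 7, the gains that overlap it (blue, median 0.20) lie on both sides, and all regions of the list are in grey (median -0.20).

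The gains that overlapped the CDP and pDC list gave another picture in the same 4 libraries. Of those 4008 gains, 3992 were covered, and the cDC libraries had medians of 552 and 823 there, against 530 and 683 in the pDC libraries. Their median log2 ratio of cDC to pDC was 0.20, and 2053 of them (51.4%) had the higher mean in cDC. The difference between the 2 sets of gains was not tested, since the CDP and pDC list that separates them was made from the same pDC libraries.

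The ratio of cDC to pDC is given by cDC level as a description only, since the same cDC libraries set the level and enter the ratio. Among regions with a mean cDC signal of 100 to 150, 531 of 745 were covered by the cDC and pDC list and their median ratio of cDC to pDC was 3.46. The median was 3.19 from 150 to 200. From 500 to 1000 all 420 were covered and the median was 5.54, and in the 162 regions of at least 1000 it was 7.79. The median ratio of cDC to CDP, which the rule used, was 3.58 in the lowest class and 7.48 in the highest. In that top class 160 of the 162 were called higher in cDC by limma, against 192 of the 531 in the lowest class. Over the whole list at all levels 9.32% were called. The share called by level over the whole list is not given here, so the contrast is not read as a trait of these regions. The 254 regions that the list did not cover were weak, with a median cDC signal of 116 and a median length of 400 bp, against 262 and 700 bp for the covered ones. They were also lower in CDP, with a median of 35.5 against 65.0. The lowest group mean at which a region entered the cDC and pDC list, taking the higher group, was 45.5.

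At 32 of the regions both pDC libraries were listed at 0. The one with the most cDC signal was chr18:89331351-89332050, with 418 and 521 in the cDC libraries. The CDP and cDC list gave it 442 and 560 in cDC against 83 and 12 in CDP, so CDP was above 0 in both libraries. Region chr9:40371201-40372200 had 299 and 543 in cDC with pDC at 0, and 289 and 548 in cDC against 46 and 44 in CDP. Being listed at 0 with unknown depth does not show that the mark was absent, and the CDP and pDC values stand in different lists.

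Region chr8:87631201-87631750 had 109 and 522 in cDC with both pDC libraries at 0, and 113 and 510 in cDC against 2 and 6 in CDP. Region chr17:34447651-34448300 had 104 and 425 in cDC with pDC at 0, and 123 and 487 in cDC against 6 and 14 in CDP. Region chr17:17836551-17838250 had 353 and 1220 for cDC beside 95 and 83 for CDP. Its overlapping region in the cDC and pDC list, of 0.70 kb, had 154 and 622 (cDC) against 0 and 1 (pDC). In these 3 regions the second-listed cDC library was more than 3 times the first.

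The 7 regions with the lower mean in cDC were short, at 0.35 to 0.50 kb. In 2 of them the place was read from the edge of a much longer region of the cDC and pDC list. Region chr11:117878851-117879250 had 88 and 150 for cDC beside 53 and 29 for CDP. The overlapping region that runs from 117874601 to 117879000 had 3557 and 4251 (cDC) against 9797 and 9386 (pDC). This was the 1 place that limma called lower in cDC (adjusted p = 0.00547). Region chr5:31501101-31501600 met a region of 3.85 kb with 4964 and 7877 for cDC beside 10513 and 8603 for pDC. In both cases the longer region reaches well past the short one. At the remaining places the regions were short in both lists and overlapped only in part, so the lists were read over partly different bases. The 2 with the lowest ratio of cDC to pDC among them are given here. Region chr4:19799451-19799950 had 135 and 144 (cDC) against 33 and 48 (CDP). The region from 19799851 to 19800100 in the other list had cDC signals of 61 and 55 beside pDC signals of 72 and 95. Region chr5:8349601-8350000 had 114 and 117 for cDC beside 29 and 65 for CDP. The region from 8349801 to 8350100 in the other list had cDC signals of 67 and 79 beside pDC signals of 86 and 110. Neither of the 2 places passed limma's adjusted threshold, with adjusted p-values of 0.57 and 0.62.

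The MPP and CDP list covered few of these places. Only 162 of the 2842 (5.70%) overlapped one of its regions, against 1941 of the 4008 gains of the other kind (48.4%). The other 2680 have no listed change from MPP to CDP, which does not show equal signal. The 162 had been gains of lower ratio, with a median ratio of cDC to CDP of 2.80, against 3.96 for the 2680. Only 82 of the 162 were covered over more than 0.5 of their length. The gains of the other kind were also longer, with a median of 1300 bp against 650 bp. The share covered among all regions of the CDP and cDC list is not given here, and the difference in cover was not tested.

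At these 162 places CDP was the lower cell type in nearly all. The median signals were 54 and 69.5 in the CDP libraries against 194 and 140 in the MPP libraries, and the MPP mean was the higher in 157, against 54.3% of the list. As a log2 ratio of MPP over CDP, the median was 1.46, against 0.12 over the whole list, which became -0.02 with equal autosomal totals. Both CDP libraries lay below both MPP libraries in 137 of the 162 (84.6%), against 32.2% of the list. In limma 76 (46.9%) were lower in CDP than MPP at an adjusted p under 0.05, against 11% of the list. Only 1 was higher in CDP, against 8.42% of the list. The CDP libraries also chose the regions for low CDP signal, so this direction too is in part fixed by the choice. The count was 32 without the first-listed and 33 without the second-listed MPP library, where a single MPP library is assumed to vary like CDP, and it was 115 of 302 when the regions were chosen without the first-listed cDC library.

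**Figure D5:**
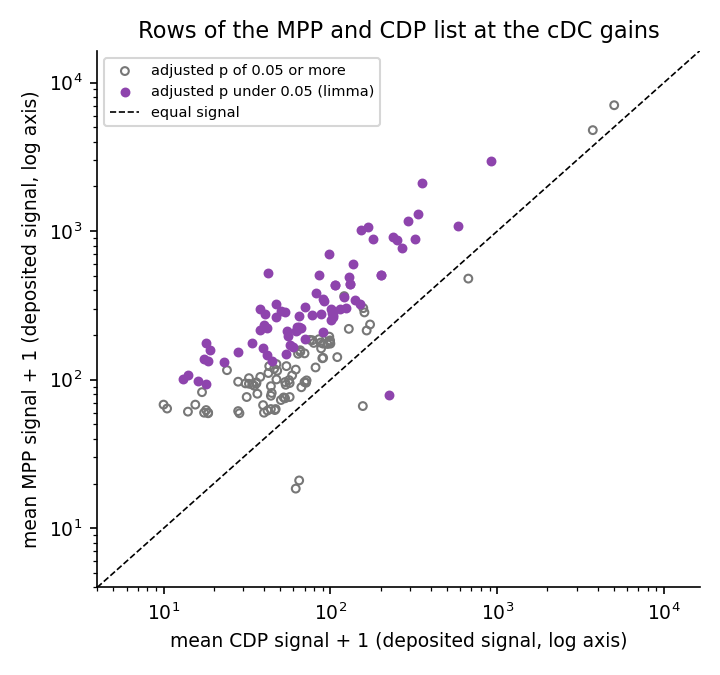
Mean CDP signal (x axis) and mean MPP signal (y axis), both plus 1 on log axes, in the 162 regions of the MPP and CDP list that overlap a cDC gain outside the CDP and pDC list. Filled points passed limma at an adjusted p under 0.05 (76 lower in CDP and 1 higher), open points did not, and 157 lie above the line of equal signal.

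Some of these places had a strong mark in MPP. Region chr1:43576851-43578150 met a region of 3.15 kb with 336 and 372 (CDP) against 2228 and 1994 (MPP), where MPP was 5.95-fold higher. In the CDP and cDC list it had 455 and 512 for cDC beside 195 and 121 for CDP, and in the cDC and pDC list 408 and 426 in cDC against 25 and 59 in pDC. Region chr3:109154651-109156050 met a region of 2.45 kb with 317 and 350 (CDP) against 1324 and 1271 (MPP), where MPP was 3.88-fold higher. It had 407 and 628 for cDC beside 209 and 264 for CDP, and cDC signals of 350 and 525 beside pDC signals of 58 and 25. Both places were lower in CDP than in MPP and cDC, with separate libraries in each list. The rule fixes the order of cDC and CDP.

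The 3 other places of largest MPP signal were read at the edge of longer regions. Region chr11:50036551-50036950 is 0.40 kb long and met a region of 4.25 kb with 4669 and 5388 (CDP) against 8105 and 5978 (MPP). Region chr2:32010401-32011950 met one of 4.15 kb with 3245 and 4238 for CDP beside 5386 and 4185 for MPP, where the groups overlap. Region chr8:87207601-87208050 met one of 2.25 kb with 949 and 878 (CDP) against 3147 and 2773 (MPP). At 5 places the MPP mean was the lower. One of them, chr11:54950401-54951500, met a region from 54950051 to 54950550, which overlaps only its start. That region had 190 and 260 for CDP beside 92 and 64 for MPP. It was the 1 that limma called higher in CDP (adjusted p = 0.0154). In the CDP and cDC list the place had 513 and 574 (cDC) against 248 and 262 (CDP).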

How the data were processed

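Reads were aligned with BWA 0.6.1 to mm9, per the submitters' processing notes, and THOR, which calls differential peaks from replicates, is named in the series title. The authors' deposited lists give 2 signals per cell type, in a unit other than counts, and −log10 of a p-value, with no stated correction. The signal scaling is not given in the sources used here, and the depth is unknown. The order of cell types follows the list names. Libraries of the same name, in regions with equal bounds and signals of at least 50 in 2 lists, differed by factors between 0.842 and 1.24 (SD no more than 0.059, log2). Other pairs had at least 0.46.

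Ratios of single regions use group means plus 1, and signals of joined stretches are plain sums. A region was read in another list through the row with the largest overlap. limma 3.58.1 (R 4.3.3) fitted log2(signal + 1) over all rows of a list with a variance trend and Benjamini-Hochberg adjustment. With 2 libraries a group, the smallest two-sided p of an exact permutation is 0.333. On values simulated for cDC over pDC (66319 regions), simulated log2 ratios of 1 and 2 came back as 1.05 and 1.98. Of 100 regions each, 21.0% and 98.0% were called, and 0.003% of unchanged ones. All regions had the same noise (SD 0.337, log2), taken from the cDC libraries, and the changed ones had a mean signal of at least 100. In the list itself 9.32% were called higher and 23.3% lower in cDC. The simulated rates are therefore not error rates of the calls reported here. Regions were named by rank: signal, ratio, length, and the ratios and levels in the other lists. The members and lists were chosen with earlier results of these data known. Positions are 1-based. Figures used matplotlib 3.10.9 and tables pandas 2.3.3 and numpy 2.4.6 under Python 3.11.15.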

Additional observations from a re-analysis of the deposited data

How the results depend on the processing

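The number of regions was 1662 with a mean cDC signal of at least 200. Under the other alternatives it stayed within 1.5 times of 2842, the highest being 4126 when only an overlap of at least 0.5 of the region excluded it, and it ran from 2139 to 4007 when each library was left out. The median log2 ratio of cDC to pDC was 2.51 with equal autosomal totals and 2.52 with the filter on the deposited −log10 p, and ran from 1.95 to 2.33 when each library was left out. The number called higher in cDC than pDC was 1013 with a length of at least 500 bp, and ran from 828 to 1676 without each library. The median log2 ratio of MPP to CDP was 1.90 with the deposited p filter and 1.80 with at least 0.5 of the region covered, and ran from 1.25 to 1.57 without each library. The number lower in CDP than MPP was 39 with the length filter and ran from 32 to 115 without each library. A filter on length or p leaves fewer regions to read. Joining over wider gaps gave 396 stretches of up to 33.65 kb. In the longest, at chr9:86929351-86963000, regions of the set cover only 1.95 kb. The 17 regions of the cDC and pDC list there summed to 1108 and 1312 (cDC) against 1566 and 1272 (pDC), a ratio of 0.853. In the other stretches read, those with the most regions, this ratio ran from 1.82 to 8.24. No alternative reversed the direction of the median ratios and counts called above. Equal totals turned the median log2 ratio over the whole list to 0.26 for cDC over pDC and to -0.02 for MPP over CDP. No paired analysis was possible because the listed values carry no replicate number. Shares near gene starts and shares with motifs were not run, since no annotation or genome of mm9 was used here. The depth is unknown, so no counting interval is given.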

Other observations

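The ratios to CDP and to pDC were set side by side where the bounds nearly matched. In 1305 regions the rows of the CDP and cDC list and of the cDC and pDC list covered at least 80% of each other. The median ratio was 4.24 for cDC to CDP and 4.78 for cDC to pDC. The first ratio divided by the second, which sets pDC against CDP through the shared cDC libraries, had a median of 0.896 and quartiles of 0.512 and 1.55. It was between 0.5 and 2 in 765 regions (58.6%), at least 2 in 227 (17.4%) and at most 0.5 in 313 (24.0%). No difference between pDC and CDP is read from these shares, since the ratio has no error of its own. The 2 CDP libraries alone differed in log2 by -2.04 to 2.05 (5th to 95th percentile) over the 2842 regions. The comparison was chosen after the values had been seen.

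On the X and Y chromosomes, 73 regions met the rest of the rule and were left out with the sex chromosomes. Of the 2842 regions of the set, 242 were covered by neither the cDC and pDC list nor the MPP and CDP list. Both lists covered 150.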
